A study of Mus musculus with 6 samples.

Results

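The Slit ligands, their Robo receptors and the srGAP proteins that act beneath the receptors were followed as 9 genes, 3 of each kind, chosen by symbol from the 55357 genes of the count files. All 9 had enough reads to be tested. Expression was read from 6 poly(A) RNA-seq libraries, each of primary mouse neurons from the cortex and hippocampus of wild type C57BL/6N embryos taken shortly before birth, which received lentivirus in the first week after plating and were collected at the end of the second. The 3 shCtrl libraries came from neurons with a scrambled short hairpin RNA, and the 3 shPla2g4e libraries from neurons with sh2, a hairpin against *Pla2g4e*, the gene of the phospholipase A2 group IVE, at a dose of virus chosen to lower the transcript only in part. The same amount of virus was used in both groups, so that transduction was shared by all libraries, and all results on the knockdown rest on 1 hairpin. The labels do not say whether the replicates were separate cultures, so that the p-values measure the spread between these samples, which may be technical. The comparison asks how partial loss of *Pla2g4e* in neurons bears on the Slit and Robo genes, which code for guidance cues of axons and their receptors.

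Slits are large secreted proteins that bind the immunoglobulin domains of Robo receptors with the help of heparan sulfate, and in the developing brain they steer growing axons and migrating neurons away from the midline and other sources of the ligand. A bound Robo recruits srGAPs, which carry an F-BAR domain that shapes membranes, a GTPase-activating domain that acts on Rac1 and Cdc42, and an SH3 domain that holds the receptor's tail. *Robo3* is an unusual receptor that in mammals does not bind Slits with high affinity and acts at the midline together with the netrin receptor DCC and the ligand NELL2.

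Short RNAs meet these genes in different ways, and their sequences are shown to make plain which letters the hairpin and the family's own microRNA share with the transcripts. The hairpin sh2 was designed against a stretch of the *Pla2g4e* coding sequence on the minus strand of chromosome 2, and its guide strand is the reverse complement of the target. The microRNA miR-218-5p is processed from precursors that lie inside *Slit2* and *Slit3* on the same strand as those genes, and its mature sequence is that of RefSeq (GRCm38.p6). Capitals mark bases 2 to 8 of each short RNA, the seed, and in the target the letters that pair with it.
sh2 target in Pla2g4e: ggaagatggtgGTGGCCAa
sh2 guide strand: tTGGCCACcaccatcttcc
mmu-miR-218-5p: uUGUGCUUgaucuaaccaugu

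The letters that pair with the sh2 seed are GTGGCCA, and those that pair with the miR-218-5p seed are AAGCACA. Both were searched on the transcript strand only, in the 3′ UTR of the transcript with the longest coding sequence of each gene (GENCODE vM21, GRCm38). Among the 9 genes, GTGGCCA was found there once in *Robo1* (match at chr16:73045585-73045591, plus strand) and once in *Srgap3* (match at chr6:112718935-112718941, minus strand), beside 12% of the 15439 tested genes with such a 3′ UTR. AAGCACA was found in 6 of the 9 genes, *Slit2*, *Robo1*, *Robo2*, *Robo3*, *Srgap2* and *Srgap3*, beside 13.8% of the genes, and *Robo2* held it at 2 places. The 3′ UTRs searched ran from 192 bases in *Slit1* to 4817 in *Srgap3*, and the shares of all genes were not matched for length. Both GTGGCCA matches and the AAGCACA matches of the 2 main receptors follow with 8 bases on each side and the match in capitals.
Robo1, GTGGCCA: agtttttcGTGGCCAatgttgaa
Srgap3, GTGGCCA: atcattgaGTGGCCAgcgcacat
Robo1, AAGCACA: ggttttaaAAGCACAatcactaa
Robo2, AAGCACA: ttggtgatAAGCACAaatctcta
Robo2, AAGCACA: gcagacccAAGCACAgcttcttt
The miR-218-5p match of *Robo1* is at chr16:73045348-73045354 on the plus strand, and those of *Robo2* are at chr16:73895359-73895365 and chr16:73893033-73893039 on the minus strand. *Slit1*, *Slit2*, *Robo2* and *Srgap1* held GTGGCCA neither in a 3′ UTR nor in the coding sequence searched, while *Slit3* held it at 3 and *Robo3* at 2 places of the coding sequence and *Robo1* at 1 such place besides the UTR. *Srgap2* held it at 4 places in the 3′ UTRs of shorter transcripts and at none in that of its longest coding transcript. A match describes letters alone, and whether either short RNA acts on these transcripts was not tested. The libraries were made from poly(A) RNA and do not measure the mature microRNA. The rows of the precursors held 2 to 5 reads per library for *Mir218-1*, inside *Slit2*, and 0 to 2 reads for *Mir218-2*, inside *Slit3*.

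Between 17054717 and 23570180 reads were counted per library, and the values that follow are counts per library size scaled with edgeR's TMM factors (CPM). *Pla2g4e* stood at 38.0, 35.1 and 35.4 CPM in the 3 shCtrl libraries and at 21.8, 14.1 and 18.7 CPM in the 3 shPla2g4e libraries, so that the target followed the labels in every library. Its log2 fold change was −0.99 (SE 0.13, adjusted p = 1.24e-04, edgeR quasi-likelihood test with Benjamini-Hochberg adjustment over 21876 genes). Genes were called at an adjusted p under 0.01. By that rule 4% of all genes tested were lower and 2.48% higher in shPla2g4e, 6.49% in either direction.

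Within the family, one receptor and one effector fell by this rule and no gene rose. *Robo1* fell by 41.9% and *Srgap1* by 29.8%. *Robo2*, *Srgap2* and *Srgap3* had lower values in all 3 shPla2g4e libraries than in any shCtrl library and missed the threshold in the main test, but passed it when the replicate number was added as a block, so that the block raised the count from 2 to 5 of 9 genes. The share of all genes called lower with the block was 9.02%. The 3 ligands did not pass in either fit. In 6 of the 9 genes the libraries of the groups did not overlap, each time with shPla2g4e lower, where 30% of all genes tested did not overlap in one direction or the other. All 9 log2 fold changes were below 0, with a median of −0.30 beside 0.03 over all genes tested, of which 46.5% were below 0. Scaled by library size alone, *Slit1* and *Slit2* turned to 0.04 and 0.0035. In bulk RNA fewer cells of a type and less RNA per cell cannot be told apart, and summed markers of neurons were also lower in every shPla2g4e library, with values given after those of the family.

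**Figure D1:**
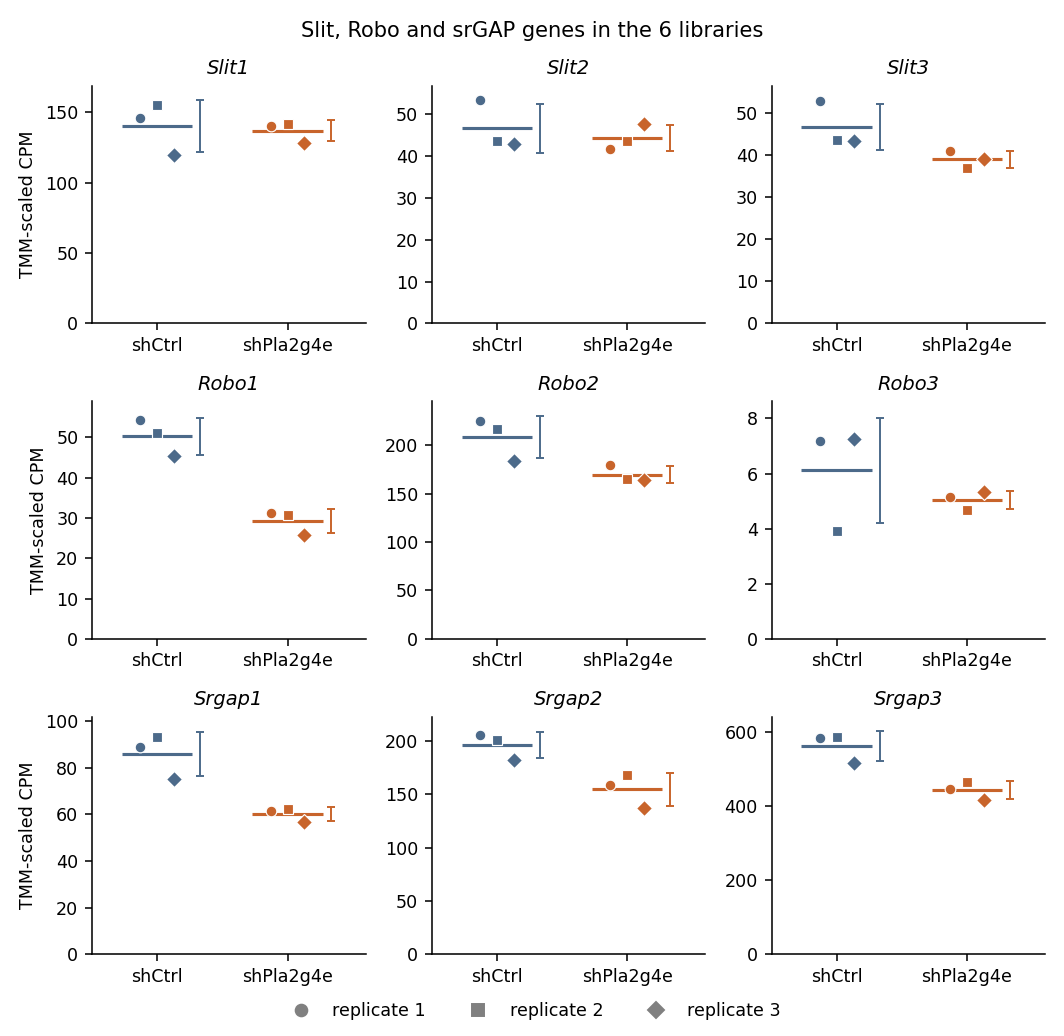
TMM-scaled CPM (y axes, each from 0) of the 9 genes in the 3 shCtrl (blue) and 3 shPla2g4e (orange) libraries, with the mean of each group as a line, its SD as a bar and the replicate number as the shape of the point. Robo1 lay at 45.3 to 54.2 CPM in shCtrl and at 25.8 to 31.1 CPM in shPla2g4e, while the groups overlapped for Slit1, Slit2 and Robo3.

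The ligands were all present in the cultures. *Slit1* (chr19:41588696-41732104, minus strand, GRCm39), the ligand gene found chiefly in the nervous system, had 146, 155 and 120.0 CPM in shCtrl and 140.5, 142 and 129 CPM in shPla2g4e. The values of the groups ran through each other, the highest and the lowest both being shCtrl libraries. Its log2 fold change was −0.04 with a 95% interval from −0.24 to 0.17 (adjusted p = 0.875, edgeR). *Slit2* (chr5:48140480-48465075, plus strand), the ligand best known from the optic chiasm and the corpus callosum, had 53.5, 43.6 and 42.8 CPM in shCtrl and 41.7, 43.7 and 47.8 CPM in shPla2g4e. Again the groups overlapped, with a single high shCtrl library, and the log2 fold change was −0.07 with an interval from −0.29 to 0.14 (adjusted p = 0.716). These intervals leave room for a change of up to about the size measured for *Slit3* in the lower direction.

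*Slit3* (chr11:35012051-35599334, plus strand), a ligand that is also made widely outside the brain, had 53.1, 43.6 and 43.5 CPM in shCtrl and 41.1, 37.0 and 39.1 CPM in shPla2g4e. Every shPla2g4e library was below every shCtrl library, by a margin that was narrow beside the spread within shCtrl. The log2 fold change was −0.26 (SE 0.10), which did not pass the threshold without the block (adjusted p = 0.101) or with it (adjusted p = 0.0186). Without the first shCtrl library, the one at 53.1 CPM, the log2 fold change was −0.16 and the adjusted p 0.383.

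The receptors differed among themselves. *Robo1* (chr16:72105194-72842983, plus strand), a main Slit receptor of cortical axons and interneurons, had 54.2, 51.1 and 45.3 CPM in shCtrl, from 1117, 1015 and 1021 reads. In shPla2g4e it had 31.1, 30.6 and 25.8 CPM, from 744, 662 and 451 reads. The lowest shCtrl library was well above the highest shPla2g4e library, and the means were 50.2 ± 4.49 and 29.2 ± 2.95 CPM (SD, n = 3 libraries each). The log2 fold change was −0.78 (SE 0.10, 95% interval −1.0 to −0.56, adjusted p = 1.0e-04), the call was made in all 11 alternative settings, and leaving out any 1 library kept it, with log2 fold changes from −0.85 to −0.70. By p-value *Robo1* stood at place 231 among the 21876 genes.

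*Robo2* (chr16:73688727-74208713, minus strand), the neighbour of *Robo1* on the chromosome and the other main Slit receptor of forebrain axons, had 225, 216 and 184 CPM in shCtrl and 179.6, 165 and 164 CPM in shPla2g4e. The groups did not overlap, although the third shCtrl library came close to the first shPla2g4e library. On the log2 scale the change was −0.30 (SE 0.09, 95% interval −0.48 to −0.11). Its adjusted p was 0.0354 in the main edgeR fit and 2.50e-04 with the replicate block, and it ran from 0.00554 without the third to 0.16 without the second shCtrl library. *Robo3* (chr9:37326965-37344542, minus strand) was the scarcest of the 9 genes, with 7.18, 3.93 and 7.24 CPM in shCtrl and 5.14, 4.67 and 5.31 CPM in shPla2g4e from 78 to 163 reads. The shCtrl libraries included both the highest values and the lowest one, and the log2 fold change of −0.28 had an interval from −0.76 to 0.19 (adjusted p = 0.486). It was −0.52 without the second shCtrl library, −0.15 without the first and −0.14 without the third. *Robo4*, the receptor of blood vessels, had 2 to 7 reads per library and is taken as not measurable at this depth.

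Because *Robo1* and *Robo2* serve the same ligands, their reads were also set against each other within each library, where the scaling cancels. The ratio of *Robo1* to *Robo2* reads was 0.241, 0.236 and 0.247 in shCtrl and 0.173, 0.186 and 0.157 in shPla2g4e. The shCtrl libraries lay within a narrow band, and all shPla2g4e libraries were below it, a log2 difference of −0.49. Of all single genes tested, 30% did not overlap between the groups, and no such share was computed for ratios of other genes. In all, 9 ratios were formed between genes of the same family, and 3 of them did not overlap between the groups. Each of these 3 had a two-sided exact permutation p of 0.1, the smallest that 3 against 3 libraries can give, and 0.3 after adjustment over the 9 ratios, so that this test could not reach 0.05 for any of them. The other pair of ratios without overlap were *Srgap1* to *Srgap3*, lower in shPla2g4e by 0.16 on the log2 scale with means of 0.153 and 0.136, and *Slit2* to *Slit3*, higher by 0.19 with means of 0.997 and 1.14. Per exon length, *Robo1* made up 18.7% to 18.9% of the summed Robo1, Robo2 and Robo3 level in shCtrl and 13.0% to 15.2% in shPla2g4e, and *Robo2* 74.0% to 77.6% and 79.3% to 80.5%.

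**Figure D2:**
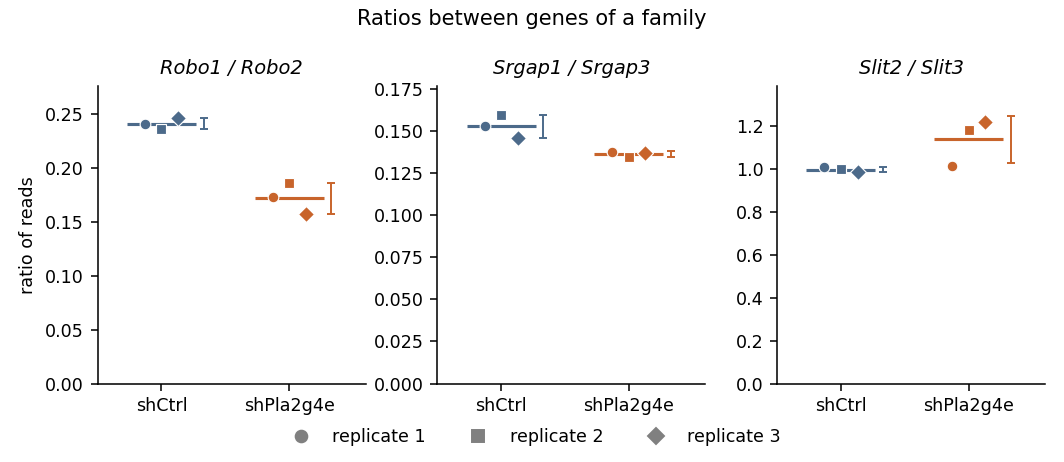
Ratio of reads (y axes from 0) of Robo1 to Robo2, Srgap1 to Srgap3 and Slit2 to Slit3 in each library, with group means as lines, SDs as bars and replicate numbers as shapes. Robo1 to Robo2 lay between 0.236 and 0.247 in shCtrl and between 0.157 and 0.186 in shPla2g4e, and in each of the 3 panels the groups do not overlap.

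All 3 srGAP genes were lower in each shPla2g4e library than in any shCtrl library. *Srgap1* (chr10:121616896-121883220, minus strand), whose protein was first described as a partner of the Robo1 tail that inactivates Cdc42, had 89.1, 93.1 and 75.1 CPM in shCtrl and 61.3, 62.4 and 56.8 CPM in shPla2g4e. The gap between the groups was wider than the whole range of shPla2g4e but narrower than that of shCtrl, and the means were 85.7 ± 9.45 and 60.2 ± 2.92 CPM. The log2 fold change was −0.51 (SE 0.09, 95% interval −0.70 to −0.32, adjusted p = 0.00146), called in all 11 alternative settings. Without the second shCtrl library, its highest, the adjusted p rose to 0.0168 and the call was lost.

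*Srgap2* (chr1:131212989-131455090, minus strand), which shapes the leading processes of migrating neurons and the maturation of spines, had 206, 201 and 182 CPM in shCtrl and 159, 168 and 137 CPM in shPla2g4e. The change was −0.34 on the log2 scale (SE 0.09), with an adjusted p of 0.0172 in the main fit and 1.58e-05 with the replicate block. No fit without 1 library called *Srgap2*, with adjusted p from 0.0104 without the third to 0.0916 without the second shCtrl library. *Srgap3* (chr6:112694932-112924227, minus strand), also known as WRP and as a regulator of Rac1 in neurons, had 582, 585 and 515 CPM in shCtrl and 445, 464 and 415 CPM in shPla2g4e. Its log2 fold change was also −0.34 (SE 0.08), with an adjusted p of 0.0110 and of 5.45e-06 with the block, and it ran from 0.00321 without the third to 0.0881 without the second shCtrl library. Both genes thus lay just outside the threshold in the main fit, their groups apart, and their share lost was 21.2% and 21.3%. A small part of the exon bases, 1.43% for *Srgap1* and 1.52% for *Srgap3*, overlapped another annotated gene, on the opposite strand for *Srgap3*, and the counting command in the file headers sets no option for strand.

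**Figure D3:**
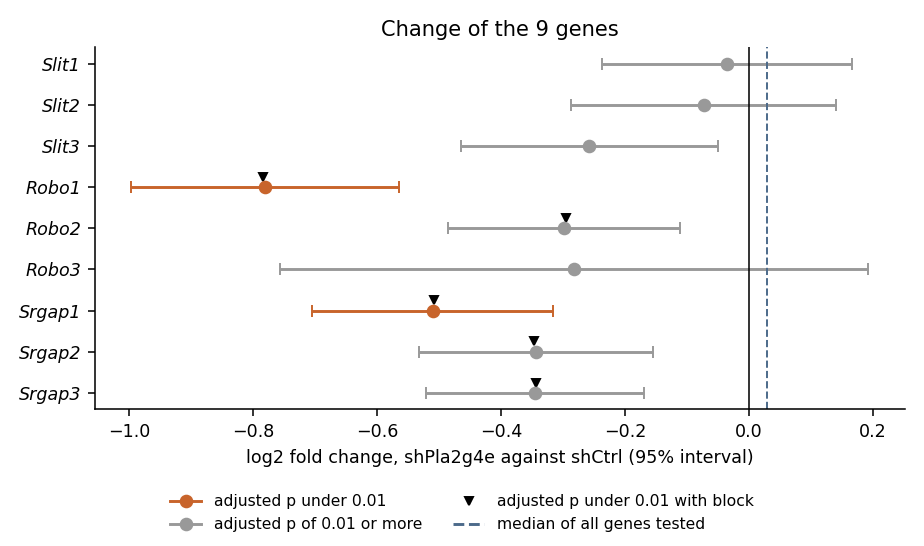
Log2 fold change of each gene in shPla2g4e against shCtrl (x axis) with its 95% interval from edgeR, orange where the adjusted p was under 0.01, with a triangle at the estimate from the fit with replicate block where that fit passed, and a dashed line at the median of all genes tested, 0.03. Robo1 at −0.78 and Srgap1 at −0.51 are the genes called in the main fit, and Robo2, Srgap2 and Srgap3 carry a triangle without it.

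The levels of the 9 genes were ordered per exon length, as TPM, the share of a library's length-corrected reads, computed from the exon length in the count files. In shCtrl *Srgap3* led with 232.8 ± 16.7 TPM (SD, n = 3), followed by *Slit1* with 97.1 ± 13.0, *Srgap2* with 64.0 ± 3.97 and *Robo2* with 50.1 ± 5.18 TPM. *Srgap1* had 38.4 ± 4.35 and *Slit3* 31.5 ± 3.42 TPM, the only neighbours in the order whose shCtrl libraries overlapped. *Robo1* followed with 12.4 ± 1.08, *Slit2* with 7.49 ± 0.887 and *Robo3* with 3.64 ± 1.11 TPM. The order by means was the same in shPla2g4e, where *Robo1*, at 7.39 ± 0.828 TPM, came next to *Slit2* at 7.29 ± 0.460 TPM, and these 2 groups of libraries overlapped there but not in shCtrl. The exon length joins all isoforms, which for *Slit2* gives 25433 bases against 7785 for its transcript with the longest coding sequence. By the length of that transcript, an alternative added after the data were seen, *Robo2* and *Srgap2* changed places in both groups. The rest of the order was kept in shCtrl, but in shPla2g4e *Robo1* and *Slit2* changed places as well, with 16.1 to 19.7 for *Robo1* and 22.3 to 25.3 for *Slit2* on that scale, so that the order of these 2 genes in shPla2g4e depended on the length used.

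**Figure D4:**
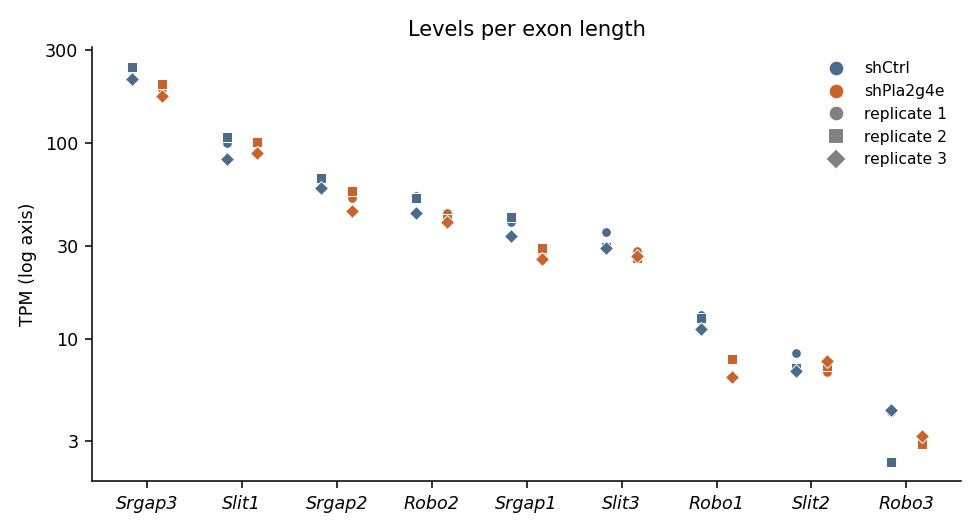
Level per exon length (TPM, log axis) of the 9 genes in the 3 shCtrl (blue) and 3 shPla2g4e (orange) libraries, ordered by the shCtrl mean, with the replicate number as the shape of the point. The order runs from Srgap3 at 232.8 to Robo3 at 3.64 TPM in shCtrl, and the Robo1 and Slit2 libraries, apart in shCtrl, overlap in shPla2g4e on this length, while by transcript length Slit2 is above Robo1 there.

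Genes that work with Slits and Robos were followed in 6 lists with 74 genes, all tested. Of these, 8 were called lower and 2 higher, where 4% and 2.48% of all genes tested were, so that the higher calls were near the share of all genes, and the median change on the log2 scale was −0.08. With the replicate block, 21 were called lower and 4 higher, where the shares of all genes were 9.02% and 6.5%. The lower calls were 3 of 8 other ligands and receptor partners, 4 of 11 heparan sulfate carriers and 1 of 12 heparan sulfate enzymes, and no call was made among the 23 cytoplasmic effectors, the 6 genes of receptor trafficking and the 14 other F-BAR genes. Whether the lists differ from each other was not tested.

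Among the other ligands and receptor partners (median log2 fold change −0.23, 4 of 8 lower with the block) were partners that form complexes with Robos. *Dcc*, the netrin receptor that Robo1 silences and Robo3 assists, had 59.2, 55.6 and 47.8 CPM in shCtrl and 30.2, 23.9 and 26.4 CPM in shPla2g4e. Its groups stood far apart, with a log2 fold change of −1.01 (SE 0.11, adjusted p = 1.61e-05). *Nell2*, which codes for a secreted ligand of Robo3, had 698.6, 620.3 and 540.6 CPM in shCtrl and 364, 355 and 375 CPM in shPla2g4e, which is −0.77 on the log2 scale (SE 0.09, adjusted p = 4.85e-05). *Plxna1*, a semaphorin receptor that also binds a cleaved fragment of Slit, had means of 306.2 ± 23.9 and 191.3 ± 7.31 CPM, which is −0.68 on the log2 scale (SE 0.08, adjusted p = 4.85e-05). Each of these 3 kept its call without any 1 library.

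Heparan sulfate holds Slit and Robo together, and its carriers at the cell surface had the lowest median of the 6 lists, −0.44, with 4 of 11 lower and 1 higher, or 6 and 1 with the block. *Gpc5*, *Gpc4* and *Gpc3*, glypicans tethered to the membrane by a lipid anchor, had log2 fold changes of −0.76 (adjusted p = 6.71e-04), −0.66 (adjusted p = 7.00e-04) and −0.77 (adjusted p = 0.00617). *Gpc3* was the scarcest of them at 8.12 ± 0.60 and 4.74 ± 0.406 CPM, and its call was lost whichever library was left out, with adjusted p from 0.0101 to 0.0312. The syndecans, carriers that span the membrane, were called in both directions, *Sdc3* at −0.49 and *Sdc1* at 0.90, both named after their values were seen because they complete the calls of the list. *Sdc3* had 592.4, 572.8 and 440.0 CPM in shCtrl and 399.3, 407.5 and 334.7 CPM in shPla2g4e, and *Sdc1* had 10.96, 9.06 and 7.33 CPM in shCtrl and 16.0, 22.9 and 11.8 CPM in shPla2g4e. Both calls were narrow, with adjusted p = 0.00694 and 0.00842 in the main edgeR fit, and each was lost in 4 of the 6 fits without 1 library. *Sdc3* lost it without shCtrl replicate 1 or 2 or shPla2g4e replicate 1 or 3, with adjusted p up to 0.0568, and *Sdc1* without shCtrl replicate 2 or 3 or shPla2g4e replicate 1 or 2, with adjusted p up to 0.0491.

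The enzymes that build and sulfate the chain had 1 lower and 1 higher call of 12, with a median of −0.07, and 4 lower and 2 higher with the block. Both calls were N-deacetylase and N-sulfotransferases, which begin the sulfation of the chain. *Ndst1* fell from 291.9 ± 16.0 to 218.4 ± 1.77 CPM, which is −0.42 on the log2 scale (adjusted p = 0.00168), and *Ndst3* rose from 29.5 ± 2.63 to 45.6 ± 5.65 CPM, which is 0.63 (adjusted p = 9.88e-04). Both lost the call without the second shCtrl library, at adjusted p = 0.0197 and 0.0113, and *Ndst1* also without the first shPla2g4e library, at 0.0129. *Hs2st1*, which sulfates the uronic acid, had a log2 fold change of −0.27 and did not pass in the main fit but did with the block (adjusted p = 0.0359 and 0.00132).

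The cytoplasmic effectors had a median of −0.06, and 2 of 23 passed with the block, a share near the 9.02% of all genes called lower there. They were *Enah*, an actin polymerase partner of Robo, at −0.25 (adjusted p = 0.0378 and 0.00154) and *Myo9b*, a RhoA-inactivating myosin that binds Robo1, at −0.28 (adjusted p = 0.0484 and 0.00121). *Cap2*, an actin-binding protein, had a log2 fold change of 0.20 and passed in neither fit. Among the genes of receptor trafficking (median −0.02), *Usp33*, a deubiquitinase of Robo1, went from 93.4 ± 5.83 to 75.9 ± 2.50 CPM and *Ndfip1*, an adaptor that hands Robo1 to ubiquitin ligases, from 526.5 ± 2.05 to 613.9 ± 11 CPM. Their log2 fold changes of −0.30 and 0.22 passed with the block (adjusted p = 7.05e-04 and 0.00325) but not in the main fit, while the ubiquitin ligase *Nedd4l*, at −0.14, passed in neither fit.

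The other F-BAR genes had a median of −0.06, and 4 of 14 were lower with the block. *Fcho1*, which helps to start clathrin-coated pits, had a log2 fold change of −0.38 (adjusted p = 0.0109 and, with the block, 1.73e-05), *Pacsin1* one of −0.29 (0.0315 and 3.29e-04 in the same order) and *Fnbp1* one of −0.28 (0.0362 and 4.31e-04). *Arhgap4*, the closest relative of the 3 srGAPs, was scarce, with 4.0 to 4.71 CPM in shCtrl and 4.25 to 4.40 CPM in shPla2g4e, groups that overlapped (log2 fold change −0.04, adjusted p = 0.931).

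**Figure D5:**
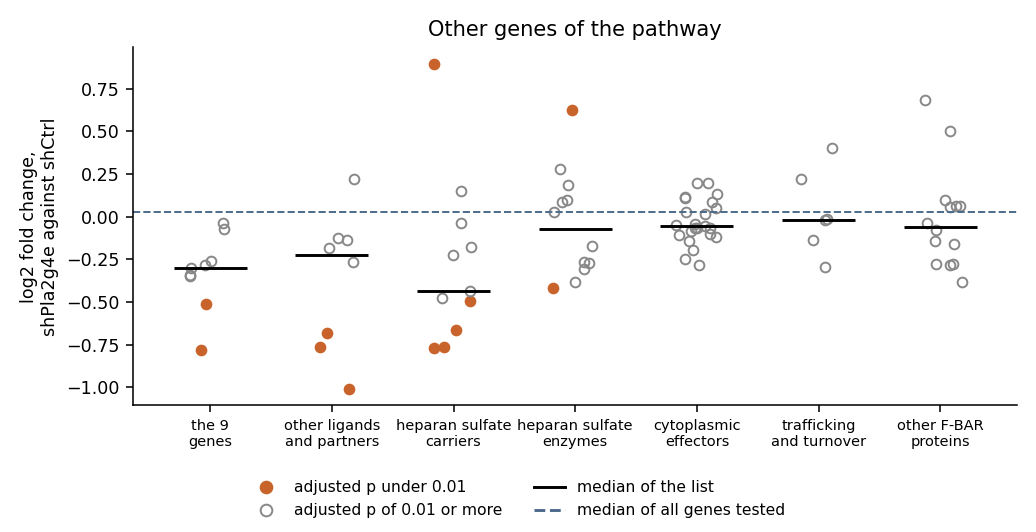
Log2 fold change in shPla2g4e against shCtrl (y axis) of the 9 genes and of the 74 genes of the 6 lists, 1 point per gene, filled where the edgeR adjusted p was under 0.01, with the median of each list as a line and that of all genes tested as a dashed line at 0.03. The filled points lie in the first 4 columns, and the carriers have the lowest median, −0.44.

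Markers of cell types moved between the groups alongside these genes. The summed level of 5 neuronal markers was 3791 to 4042 CPM in shCtrl and 3341 to 3773 CPM in shPla2g4e, with 2 called lower and 1 higher. The 5 glutamatergic markers had 951 to 1226 and 596 to 659 CPM, with 2 called lower and 1 higher, and the 5 GABAergic markers 704 to 755 and 587 to 652 CPM, with 1 called lower. The 4 proliferation genes had 23.6 to 42.7 and 11.5 to 21.8 CPM, with 1 called lower. In none of these 4 lists did the sums of the groups overlap. The 6 astrocyte markers, at 1471 to 2146 and 1068 to 1863 CPM with 1 called lower, the 6 oligodendrocyte markers, at 470 to 534 and 483 to 580.1 CPM, and the 4 fibroblast markers, at 17.9 to 24.6 and 23.3 to 31.1 CPM, overlapped. Between libraries of the same replicate number, the astrocyte sum was lower in shPla2g4e in 3 of 3 pairs (1471 and 1109, 1734 and 1068, 2146 and 1863 CPM), and the fibroblast sum was higher in 3 of 3 pairs (23.1 and 23.3, 24.6 and 31.1, 17.9 and 30.3 CPM). The microglial sum, low in every library, was lower in 3 of 3 pairs (4.71 and 4.10, 3.07 and 2.59, 7.73 and 4.23 CPM). Pairs differed in direction for the oligodendrocyte sum (470 and 488, 490 and 580, 534 and 483 CPM). They also did for the endothelial and mural sum (20.1 and 21.7, 21.6 and 20.6, 26.8 and 29.2 CPM). The first fibroblast pair was nearly equal, and 3 pairs are too few to weigh a shared direction. Microglial markers summed to at most 7.73 CPM and the 6 endothelial and mural ones to 20.1 to 29.2 CPM. Of these 6 vascular markers, *Cldn5* alone had no read in any library, and the other 5 had enough reads to be tested. The mitochondrial share of reads was higher in shPla2g4e in 3 of 3 pairs (2.75% and 3.53%, 2.89% and 3.08%, 3.62% and 3.79%), as was the share of the 10 most abundant genes (3.86% and 4.53%, 3.95% and 4.08%, 4.70% and 4.90%). The part of these shifts in the values of the Slit, Robo and srGAP genes was not tested.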

How the data were processed

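The authors aligned reads of stranded poly(A) libraries with STAR 2.7.0d and deposited raw counts per gene from featureCounts 1.6.0 (per the file headers, GENCODE vM28 on GRCm39, exons, no strand or pair option, multi-mapping reads left out), 1 file per library. The paper's methods name another annotation release. Symbols were matched by identifier to a reference table of gene names for 52081 of 55357 genes, and the other 3276 stayed in the tests. No genome sequence of GRCm39 was used here, so sequences come from GENCODE vM21 and RefSeq tables.

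Counts were tested with edgeR 4.0.16 in R 4.3.3 (TMM, quasi-likelihood fit on group) over the 21876 genes that reached 6 reads in any library. limma 3.58.1 after voom, DESeq2 1.42.0, other scalings and filters, a replicate block and leave-one-out fits were alternatives, and the fit was tested on simulated data. Library pairs differed by a mean chi-square per gene of 5.93 to 15.3 within and 19.1 to 38.5 between groups, more than sampling noise gives. Over 10908 genes, same-numbered libraries shared their departures from the mean of their group (r = 0.392, 0.189 and 0.461) and others less (−0.393 to 0.108). Departures cancel within a group of 3, which pushes the other values down when same-numbered ones are high. This check therefore cannot settle whether the numbers mark pairs, and the block is an alternative that rests on that reading. The main fit stayed without the block, and blocked values are printed where they change a call. The members, lists and tests were chosen with earlier results of these data known. Genes named are the 9 members, *Pla2g4e*, *Robo4*, *Arhgap4* and the 3 with the smallest p in each list. *Sdc1*, *Sdc3*, *Cldn5* and the miR-218 precursor genes were named outside this rule, after their values were seen.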

Additional observations from a re-analysis of the deposited data

How the results depend on the processing

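The count of Slit, Robo and srGAP genes called lower, 2 in the main fit, was 4 with DESeq2 and 5 with no filter on low counts, with the replicate block and at an adjusted p of 0.05. It ran from 1 without the second to 4 without the third shCtrl library. No gene of the 9 was called higher in any setting. Of the 74 pathway genes, 8 were called lower in the main fit, 14 with DESeq2, 21 with the replicate block, 19 at an adjusted p of 0.05, and 5 to 8 when 1 library was left out, the lowest without the second shCtrl or the first shPla2g4e library. The 2 higher pathway calls became 1 with voom, at least 10 reads in every library, filterByExpr or the robust fit, 4 with library size alone or the block, and 0 to 2 when 1 library was left out, the lowest without the second shCtrl library. The log2 fold change of *Slit1* turned to 0.041 and that of *Slit2* to 0.0035 with library size alone, and they ran from −0.14 to 0.042 and from −0.13 to 0.036 when 1 library was left out. The block changed the calls of *Robo2*, *Srgap2* and *Srgap3* and of no other of the 9 genes. *Pla2g4e* kept its call in every setting, with log2 fold changes of −1.14 to −0.83 when 1 library was left out. The causes were not tested. Over all 21876 genes, 876 were called lower in the main fit, 1214 with DESeq2, 1599 at an adjusted p of 0.05 and 1973 with the block. Lower calls made up 61.7% of 1419 calls in the main fit and 43.3% of 1405 with library size alone, and the median log2 fold change moved from 0.03 to 0.10. With 3 libraries a group and 78 to 163 reads, *Robo3* could be measured only roughly.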
